A study of Mus musculus with 12 samples.

Results

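The p53 pathway was followed through 38 genes in mouse embryonic stem cells (ESCs) that carried or lacked Cidea, which encodes a lipid droplet protein. These genes comprised 5 grouped as regulators (Trp53, the gene of p53, with Mdm2, Mdm4, Ppm1d and Trp73) and 33 that p53 is known to activate. The 38 were taken by name from a list, with values summed over the transcripts of each gene, out of 35580 genes measured in the whole series, and all 38 were among the 17424 genes expressed highly enough to be tested. WT was the parental R1 line, and CIDEA KO (genotype Cidea -/-) was the subclone 19.7, derived from it after deletion of the Cidea locus with CRISPR-Cas9. Both were sequenced as ESCs grown with LIF, a cytokine that keeps them undifferentiated (0 h), and as 3D spheroids with growth factor-reduced Matrigel and without LIF, 24 h and 48 h after seeding, with 2 libraries per group and 12 in all. The labels call the spheroids embedded in Matrigel, whereas the methods of the study describe seeding on top of a Matrigel coat for molecular experiments. All CIDEA KO libraries came from this single clone, so the loss of Cidea cannot be told apart from any other difference between the clone and its parent.

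p53 is a transcription factor that is kept scarce by MDM2, which marks it for destruction, and is held inactive by MDM4. DNA damage, nucleolar stress and other insults release it from both. It then binds pairs of a short consensus sequence and switches on genes for cell cycle arrest, cell death, DNA repair and metabolism, and also Mdm2, which closes a negative feedback loop. p53 is regulated chiefly as a protein, so its mRNA level says little about its activity. ESCs hold much p53 protein, and p53 is known to promote their differentiation.

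Total estimated counts ran from 29 to 38.5 M per library, and 3 counts, taken as the floor, stood for 0.0779 to 0.1035 counts per M counts (CPM). The floor reflects counting error alone. Cidea itself had between 20 and 117 counts in the 6 WT libraries and 0 counts in the 6 CIDEA KO libraries. The markers of pluripotent cells, Pou5f1, Sox2, Nanog, Zfp42 and Esrrb, summed to between 1655 and 3095 TPM (transcripts per M, scaled for length) in WT and between 1692 and 3484 TPM in CIDEA KO, against 14.8 to 24.8 and 6.88 to 22.4 TPM for 7 fibroblast markers, of which Postn was at 0 throughout. Neural markers summed to 60.7 to 149.9 TPM in WT and 53.8 to 156 TPM in CIDEA KO, and the endoderm, mesoderm and trophoblast lists to at most 13.4 TPM in any library. Of the 27 marker genes in these 6 lists 23 were tested for genotype over all times, and 3 passed, Zfp42 (log2 0.23, adjusted p = 0.0024) and Sox1 (0.61, adjusted p = 0.022) being higher and Thy1 (-0.79, adjusted p = 0.0023) lower in CIDEA KO. Their part in the results was not tested. CIDEA KO replicate 1 at 24 h stood apart, with 15473 genes detected at equal depth against 17635 to 19672 in the other 11 libraries. At 0 h the WT libraries detected 17701 and 17635 genes and the CIDEA KO libraries 19057 and 18638, and the part of this difference in the results was not tested. In bulk RNA, a change in the share of cells that express a gene cannot be told apart from a change in RNA per cell.

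The sequences through which p53 is known to act are given first. Many of the 38 genes are known as p53 targets because of such sites, so that sites are frequent among them follows from the choice of genes and is no separate result. RefSeq promoter windows of GRCm38.p6, from 250 bases before to 50 bases after an annotated start, were given for 30 of the 38 genes in 41 windows of 300 bases. The consensus p53 half-site (10 bases, searched by name on both strands) occurred in 13 of the 41 windows (31.71%) and in 8.36% of all 32851 windows. Pairs of half-sites at most 13 bases apart with at most 3 mismatches occurred in 10 of the 41 windows (24.39%), belonging to 9 genes, and in 6.72% of all windows. The pairs of all 9 genes follow, 5′ to 3′ along the gene, with each half-site in capitals and any spacer in lower case. A match describes letters only and not occupancy by p53.
Cdkn1a: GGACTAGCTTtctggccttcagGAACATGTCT
Ckap2: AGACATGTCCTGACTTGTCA
Gtse1: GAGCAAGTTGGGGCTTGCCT
Aen: GGGCTTGTCCGGGCAAGGAG
Mdm4: AAGCAAGGTAtgctgTGGCAAGCCT
Bax: TGACAAGCATatcccAGGCAAGCTT
Rps27l: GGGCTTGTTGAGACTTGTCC
Trp53: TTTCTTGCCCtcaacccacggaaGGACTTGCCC
Bbc3: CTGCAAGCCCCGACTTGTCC

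The Cdkn1a pair matched the consensus with 0 mismatches at chr17:29090906-29090937 (plus strand), 73 bases before an upstream start, and the window at the start of Cdkn1a-201, the transcript with most of the counts, held none. That of Rps27l, with 1 mismatch, lay at chr9:66946296-66946315 (plus strand), downstream of the start of its leading transcript. Gtse1 had 1 mismatch at chr15:85859945-85859964 (plus strand), and Ckap2 had 2 at chr8:22186003-22186022 (minus strand), 203 bases before its start. The pair of Bax (2 mismatches) was at chr7:45467090-45467114 (minus strand), that of Aen (3 mismatches) at chr7:78895937-78895956 (plus strand) and that of Mdm4 (3 mismatches) at chr1:133025626-133025650 (minus strand), 234 bases before the start of its leading transcript. Those of Trp53 at chr11:69580261-69580293 and Bbc3 at chr7:16309486-16309505 (both plus strand) had 3 mismatches each. Of these 9 genes 5, Cdkn1a, Ckap2, Gtse1, Aen and Mdm4, were higher in CIDEA KO in the comparison that follows, and Bax, Rps27l, Trp53 and Bbc3 did not pass its test. Among all 38 genes 19 (50%) were higher there, so these 5 are no result about the pairs. Sites farther from a start or within introns lie outside these windows.

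Over the 3 time points together, 19 of the 38 genes were higher in CIDEA KO and 0 were lower (edgeR quasi-likelihood test, Benjamini-Hochberg adjusted p under 0.05), where 2.19% of all 17424 genes tested were called higher and 2.84% lower. At an unadjusted p under 0.05 24 were higher and 1 lower, where 8.41% of all genes were higher, and DESeq2 called 20 higher and 0 lower, where it called 1.98% of the 24773 genes given to it higher. The rises were small. They ran from 0.19 on the log2 scale in Aen (1.14-fold) to 0.86 in Perp (1.82-fold), with a median of 0.32, and the median over all 38 genes was 0.23 against 0 over all genes tested. A total of 30 of the 38 fold changes were above 0, against 49.5% of all genes. By role, 2 of 5 regulators, 7 of 9 cell cycle genes, 5 of 11 cell death genes, 1 of 5 DNA repair genes and 4 of 8 stress and signalling genes were called. The list was proposed with results of these libraries in view, so the count is not independent evidence of its direction. It was 9 (with 0.522% of all genes called higher) when the average transcript length of each gene in each library entered the fit, and 7 (with 0.717%) when the 24 h libraries were left out of the comparison, an alternative chosen after the data were seen. When each of the 12 libraries was left out in turn it ran from 14 to 22, and it was 21 (2.68% of all genes) without CIDEA KO replicate 1 at 24 h.

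**Figure D1:**
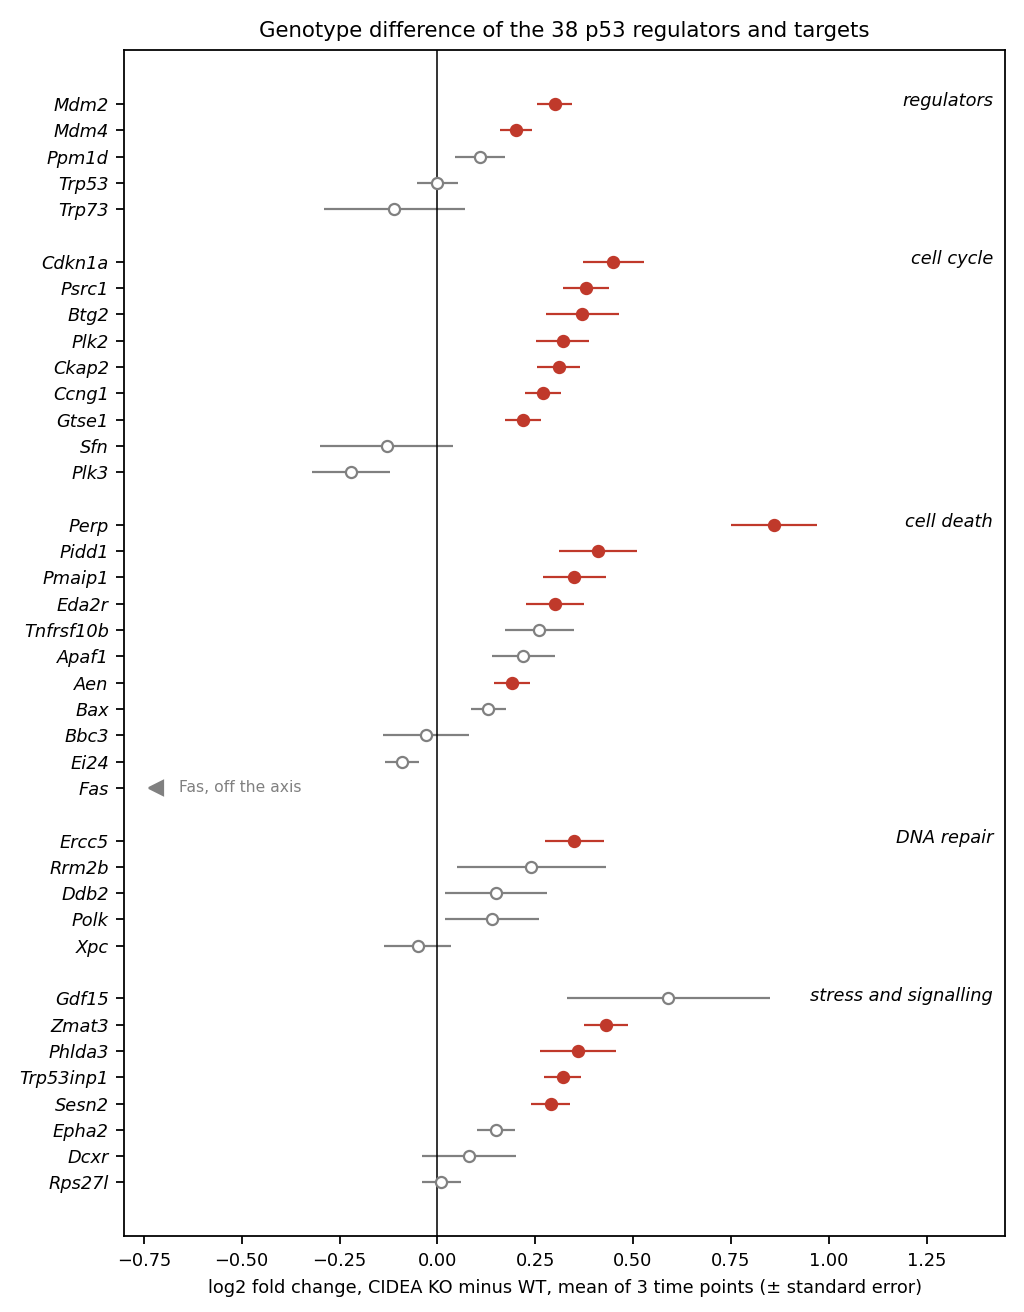
Log2 fold change of CIDEA KO over WT, averaged over the 3 time points, for each of the 38 genes grouped by role (points, with bars of 1 standard error; 2 libraries per group; filled red points passed an adjusted p of 0.05 and open grey points did not). The 19 filled points lie between 0.19 (Aen) and 0.86 (Perp), and Fas (-1.11 ± 1.2) lies off the axis.

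Among the regulators, Trp53 did not pass the test while both of its inhibitors were higher in CIDEA KO. Trp53 (ENSMUSG00000059552, chr11:69580359-69591873, GRCm38), which encodes p53, had 577 and 518 CPM at 0 h, 766 and 685 at 24 h and 532 and 474 at 48 h in WT. The values in CIDEA KO were 541 and 529, 689 and 693, and 483 and 597 CPM in the same order. The genotypes overlapped at every time (log2 fold change 0.00 ± 0.052 SE, adjusted p = 1). Mdm2 (ENSMUSG00000020184, chr10:117688875-117710758), the ubiquitin ligase that p53 itself induces, had 102 and 99.2 CPM at 0 h, 109 and 102 at 24 h and 143 and 142 at 48 h in WT. In CIDEA KO they were 118 and 114, 135 and 143, and 178 and 173 CPM in the same order. Both CIDEA KO libraries lay above both WT libraries at each time (log2 fold change 0.30 ± 0.045 SE, adjusted p = 3e-04). Mdm4 (ENSMUSG00000054387, chr1:132959484-133030561), the relative of Mdm2 that blocks transactivation by p53, had 224 and 234 CPM in WT against 259 and 263 in CIDEA KO at 0 h, 161 and 174 against 213 and 216 at 24 h, and 183 and 193 against 198 and 190.4 at 48 h. Its libraries separated at 0 h and 24 h and overlapped at 48 h (log2 fold change 0.20 ± 0.041 SE, adjusted p = 0.0065). Both calls were lost with transcript lengths in the fit, where the log2 values were 0.12 in Mdm2 (adjusted p = 0.59) and 0.24 in Mdm4 (adjusted p = 0.096). Ppm1d, the phosphatase WIP1 that opposes p53 signalling, ranged from 46.5 to 70.6 CPM over the 12 libraries (log2 fold change 0.11 ± 0.064 SE, adjusted p = 0.42), and Trp73, a relative of p53, from 2.45 to 18.2 CPM (log2 fold change -0.11 ± 0.18 SE, adjusted p = 0.84).

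The cell cycle genes gave the highest share of calls, 7 of 9. Cdkn1a (chr17:29090976-29100727), which encodes the CDK inhibitor p21, had 42.7 and 39.1 CPM at 0 h, 23.8 and 24.4 at 24 h and 34 and 31.4 at 48 h in WT. CIDEA KO libraries had 44.2 and 54.5, 39.2 and 31.7, and 45.8 and 48.8 CPM in the same order. The genotypes separated at each time (log2 fold change 0.45 ± 0.078 SE, adjusted p = 0.0013). Ccng1 (chr11:40748552-40755311), which encodes cyclin G1, had 251 and 287 CPM at 0 h, 299 and 322 at 24 h and 470.0 and 448 at 48 h in WT. The values in CIDEA KO were 261 and 304, 393 and 418, and 588 and 579 CPM in the same order. Here the genotypes overlapped at 0 h and separated at 24 h and 48 h (log2 fold change 0.27 ± 0.046 SE, adjusted p = 0.0013). Psrc1, which encodes a microtubule-binding protein of the mitotic spindle, had 137 and 119 CPM in WT against 154 and 144 in CIDEA KO at 0 h, 119 and 105 against 174 and 143 at 24 h, and 112 and 119.7 against 150.0 and 162 at 48 h. The lowest CIDEA KO library of Psrc1 was above the highest WT library over all times (log2 fold change 0.38 ± 0.058 SE, adjusted p = 0.00035), a separation of all 6 from all 6 that only Perp and Zmat3 shared among the 38 genes and that 0.316% of all genes tested showed. Ckap2, which encodes another spindle protein and holds a p53 pair in its promoter window, had 133 and 136 CPM at 0 h, 138 and 153 at 24 h and 167 and 166 at 48 h in WT. CIDEA KO gave 139 and 159.7, 221 and 177, and 210.5 and 205 CPM in the same order. Its libraries separated at each time, with replicate 1 of CIDEA KO well above replicate 2 at 24 h (log2 fold change 0.31 ± 0.055 SE, adjusted p = 0.0019).

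Plk2, which encodes a polo-like kinase, had 31 and 32.4 CPM at 0 h, 34.4 and 36.3 at 24 h and 62.5 and 50.9 at 48 h in WT. CIDEA KO libraries had 34.5 and 34.9, 50.7 and 48.2, and 71.2 and 72.1 CPM in the same order. The genotypes separated at each time (log2 fold change 0.32 ± 0.067 SE, adjusted p = 0.0074). Btg2, which encodes an antiproliferative protein, had 20.0 and 23.9 CPM in WT against 23.5 and 24.1 in CIDEA KO at 0 h, 26.1 and 27.5 against 36.1 and 40.7 at 24 h, and 26.5 and 22.1 against 29.3 and 38.7 at 48 h. The genotypes did not overlap at 24 h or 48 h, and at 0 h one WT library exceeded the lower CIDEA KO library (log2 fold change 0.37 ± 0.093 SE, adjusted p = 0.023). Gtse1, whose product binds microtubules and p53, had 194 and 192 CPM at 0 h, 204 and 190.5 at 24 h and 189 and 196 at 48 h in WT. In CIDEA KO they were 202 and 219.5, 256 and 233, and 215 and 239 CPM in the same order. Its libraries separated at each time, and the rise was one of the smaller ones (log2 fold change 0.22 ± 0.046 SE, adjusted p = 0.0054). The other two genes of the group did not pass. Plk3, another polo-like kinase, had values on the other side of 0 (log2 fold change -0.22 ± 0.1 SE, adjusted p = 0.29), as did Sfn, which encodes 14-3-3 sigma (log2 fold change -0.13 ± 0.17 SE, adjusted p = 0.8). At 24 h both CIDEA KO libraries of each were below both WT libraries, with Sfn at 15.8 and 13 CPM in WT and 4.72 and 10.3 CPM in CIDEA KO, replicate 1 being the lower.

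**Figure D2:**
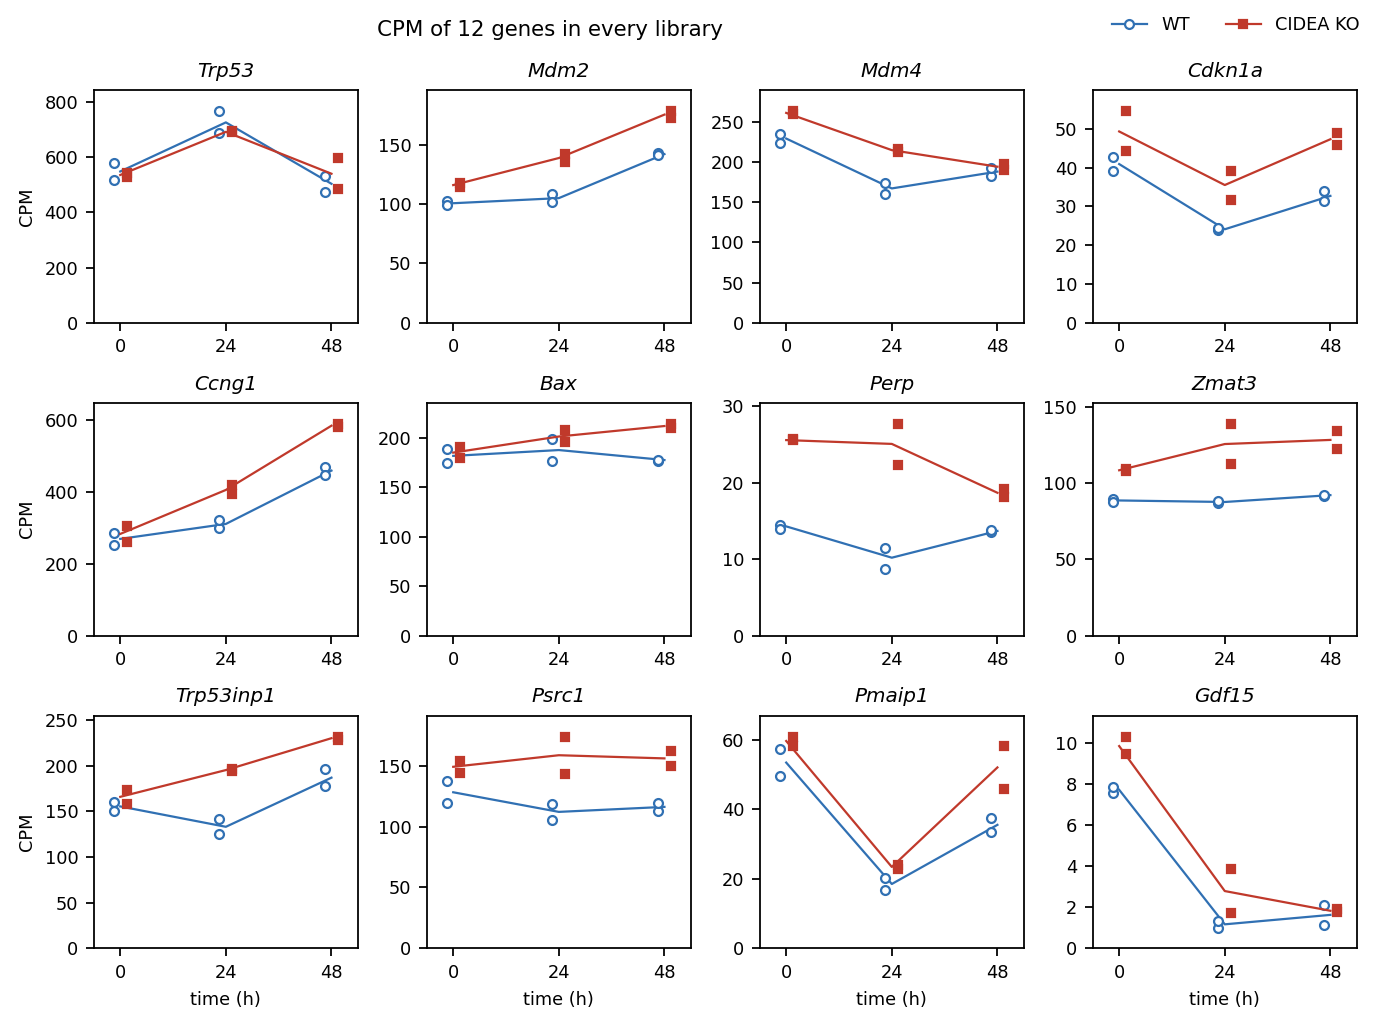
CPM against time (h) for 12 genes, with 1 point per library (open blue circles, WT; filled red squares, CIDEA KO; 2 per genotype and time) and lines through the group means. Mdm2, Cdkn1a, Perp, Zmat3, Psrc1 and Pmaip1 have both CIDEA KO points above both WT points at all 3 times, Trp53 and Gdf15 do not, and Pmaip1 and Gdf15 drop in both genotypes at 24 h.

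Of the 11 cell death genes 5 were called, and the one with the largest rise of all 38 was Perp (chr10:18845020-18857073), which encodes a membrane protein of cell junctions and of p53-dependent death. It had 14.5 and 14 CPM at 0 h, 8.77 and 11.5 at 24 h and 13.6 and 13.8 at 48 h in WT. CIDEA KO gave 25.7 and 25.6, 27.7 and 22.4, and 18.2 and 19.2 CPM in the same order. The 6 CIDEA KO libraries lay above the 6 WT libraries (log2 fold change 0.86 ± 0.11 SE, adjusted p = 3.2e-05). Pmaip1 (chr18:66458533-66465565), which encodes the BH3-only protein NOXA and ends 878.0 kb before Cidea on the same chromosome, had 49.5 and 57.3 CPM in WT against 58.3 and 60.8 in CIDEA KO at 0 h, 16.7 and 20.3 against 22.8 and 24 at 24 h, and 37.5 and 33.5 against 58.3 and 45.7 at 48 h. The genotypes separated at each time, narrowly at 0 h (log2 fold change 0.35 ± 0.08 SE, adjusted p = 0.013). Aen, which encodes an exonuclease that acts in apoptosis, had 116 and 127 CPM at 0 h, 158 and 175 at 24 h and 194 and 210.1 at 48 h in WT. The values in CIDEA KO were 128 and 128, 217 and 208, and 222 and 230.2 CPM in the same order. The genotypes separated at each time, by little at 0 h (log2 fold change 0.19 ± 0.046 SE, adjusted p = 0.016). Pidd1, a component of the caspase-2 platform, had 23.1 and 18.1 CPM at 0 h, 35.5 and 32.7 at 24 h and 42.3 and 46.3 at 48 h in WT. In CIDEA KO they were 28.4 and 25.2, 58.9 and 39.6, and 48.5 and 61.2 CPM in the same order. Again there was no overlap at any time, but the CIDEA KO replicates differed by more than the genotype means at 24 h (log2 fold change 0.41 ± 0.1 SE, adjusted p = 0.024). Eda2r, which encodes a receptor of the TNF receptor family, had 38.2 and 47.5 CPM in WT against 47.1 and 47.6 in CIDEA KO at 0 h, 44.6 and 54.8 against 68.2 and 73 at 24 h, and 63.4 and 54.4 against 66.7 and 74.6 at 48 h. At 0 h one WT library of Eda2r lay between the CIDEA KO libraries, and the genotypes separated at 24 h and 48 h (log2 fold change 0.30 ± 0.074 SE, adjusted p = 0.019).

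The other 6 death genes did not pass. Bax, the pore-forming effector of mitochondrial apoptosis, had 189 and 175 CPM at 0 h, 199 and 177 at 24 h and 177 and 178 at 48 h in WT. CIDEA KO libraries had 179.8 and 190.5, 208 and 195, and 209.9 and 214 CPM in the same order. Its libraries overlapped at 0 h and 24 h and separated at 48 h (log2 fold change 0.13 ± 0.045 SE, adjusted p = 0.12). Bbc3, which encodes PUMA, ranged from 15.3 to 32.2 CPM (log2 fold change -0.03 ± 0.11 SE, adjusted p = 0.96), with both CIDEA KO libraries below both WT libraries at 48 h. For Tnfrsf10b, a TRAIL receptor, the value was above 0 without passing (log2 fold change 0.26 ± 0.088 SE, adjusted p = 0.11), as for Apaf1, the apoptosome scaffold (log2 fold change 0.22 ± 0.08 SE, adjusted p = 0.13). Ei24, an endoplasmic reticulum protein, stayed near 0 (log2 fold change -0.09 ± 0.044 SE, adjusted p = 0.31). Fas, the death receptor, was at or under 0.309 CPM in every library before 48 h and between 0.173 and 1.87 CPM at 48 h. At 24 h it had 10 and 11 counts in WT against 0 and 4 in CIDEA KO. The counts at 48 h were 55 and 24 against 24 and 5. In CPM both CIDEA KO libraries were below both WT libraries at 24 h and 48 h. The difference rested on few counts and did not pass (log2 fold change -1.11 ± 1.2 SE, adjusted p = 0.74).

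One of 5 DNA repair genes was called. Ercc5, which encodes the endonuclease XPG of nucleotide excision repair, had 33.8 and 42.7 CPM at 0 h, 33.5 and 34.9 at 24 h and 41.5 and 47.4 at 48 h in WT. The values in CIDEA KO were 36.7 and 42.2, 54.8 and 48, and 59.4 and 59.2 CPM in the same order. The genotypes overlapped at 0 h and were apart at 24 h and 48 h (log2 fold change 0.35 ± 0.076 SE, adjusted p = 0.0085). Polk (a translesion polymerase), Xpc and Ddb2 (damage recognition) and Rrm2b (a ribonucleotide reductase subunit) had fold changes between -0.05 and 0.24 on the log2 scale and did not pass. Their levels were low, from 5.14 CPM in Rrm2b to 33.1 CPM in Xpc, and Rrm2b at 24 h had 5.71 and 12.5 CPM in the CIDEA KO libraries.

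In the stress and signalling group 4 of 8 genes were called. Zmat3 (chr3:32334792-32366014), which encodes an RNA-binding zinc finger protein that p53 induces, had 89.6 and 87.6 CPM in WT against 108 and 109 in CIDEA KO at 0 h, 86.9 and 88.3 against 112 and 139 at 24 h, and 91.7 and 92.5 against 122 and 134 at 48 h. All 6 CIDEA KO libraries were above all 6 WT libraries, and the WT libraries stayed within 86.9 and 92.5 CPM at all times (log2 fold change 0.43 ± 0.056 SE, adjusted p = 5.7e-05). Trp53inp1, a stress-induced nuclear protein that promotes p53 activity, had 161 and 150.1 CPM at 0 h, 125 and 141 at 24 h and 196 and 178 at 48 h in WT. CIDEA KO gave 158 and 174, 196 and 194, and 232 and 229 CPM in the same order. One CIDEA KO library lay between the WT libraries at 0 h, and there was no overlap later (log2 fold change 0.32 ± 0.048 SE, adjusted p = 0.00034). Sesn2, a sestrin that restrains mTORC1, had 160.1 and 157 CPM at 0 h, 158 and 143 at 24 h and 124 and 117 at 48 h in WT. CIDEA KO libraries had 189 and 189.6, 192 and 178, and 136 and 159.6 CPM in the same order. The genotypes separated at each time (log2 fold change 0.29 ± 0.05 SE, adjusted p = 0.0014). Phlda3, whose product keeps Akt from the membrane, had 16.8 and 20.1 CPM in WT against 27.6 and 23.7 in CIDEA KO at 0 h, 28.8 and 26.3 against 29 and 39.1 at 24 h, and 32.8 and 29.5 against 34.1 and 42.2 at 48 h. The separation was complete at each time but thin at 24 h and 48 h (log2 fold change 0.36 ± 0.097 SE, adjusted p = 0.036). Epha2, an ephrin receptor, had 164 and 151 CPM at 0 h, 110.2 and 103 at 24 h and 86.4 and 91 at 48 h in WT. In CIDEA KO they were 202 and 206, 99 and 107, and 95.5 and 98.2 CPM in the same order. Epha2 did not pass over all times (log2 fold change 0.15 ± 0.048 SE, adjusted p = 0.08) and was higher in CIDEA KO at 0 h (log2 fold change 0.37 ± 0.082 SE, adjusted p = 0.024). Gdf15, a secreted stress cytokine, had 7.58 and 7.85 CPM in WT against 10.3 and 9.45 in CIDEA KO at 0 h, 1.01 and 1.32 against 3.84 and 1.73 at 24 h, and 2.1 and 1.15 against 1.75 and 1.91 at 48 h, and did not pass (log2 fold change 0.59 ± 0.26 SE, adjusted p = 0.24). Rps27l, a ribosomal protein that is hard to tell from its paralog Rps27 by sequence (log2 fold change 0.01 ± 0.05 SE, adjusted p = 0.96), and Dcxr, a carbonyl reductase (log2 fold change 0.08 ± 0.12 SE, adjusted p = 0.83), did not pass either.

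Of the 19 calls over all times, 6 rested on single libraries, in that leaving out 1 library ended the call. For Pmaip1 this held for replicate 1 of WT at 0 h and at 24 h, replicate 2 of WT at 48 h and replicate 1 of CIDEA KO at 48 h (adjusted p up to 0.071). For Btg2 and Eda2r it held for replicate 1 of WT at 0 h and at 24 h, replicate 2 of WT at 48 h and replicate 2 of CIDEA KO at 0 h and at 48 h (adjusted p up to 0.11 and 0.084). The call of Aen ended without replicate 1 of WT at any time or replicate 2 of CIDEA KO at 0 h or 48 h (adjusted p up to 0.078). That of Pidd1 ended in 6 of the 12 fits, without replicate 2 of WT at 0 h, either WT replicate at 24 h, replicate 1 of WT at 48 h, replicate 1 of CIDEA KO at 0 h or replicate 2 at 48 h (adjusted p up to 0.075), and that of Phlda3 in 7, without replicate 1 of WT at 0 h, either WT replicate at 24 h or 48 h, replicate 1 of CIDEA KO at 0 h or replicate 2 at 48 h (adjusted p up to 0.14). The other 13 genes were called in all 12 fits.

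At single times, the genotype difference was called most often at 24 h. In ESCs at 0 h, 2 of the 38 genes were higher (Perp 0.84 ± 0.18 and Epha2 0.37 ± 0.082, log2 ± SE) and 0 lower, where 0.275% of all genes were called higher and 0.987% lower, and at an unadjusted p under 0.05 it was 9 higher and 2 lower (10% of all genes in either direction; DESeq2 gave 2 and 1, with 0.436% and 1.13% of all genes). In spheroids at 24 h, 12 were higher and 0 lower, with 0.448% of all genes called higher and 1.02% lower, and at an unadjusted p under 0.05 it was 19 higher and 2 lower (12.5% of all genes in either direction; DESeq2 gave 14 and 0, with 0.589% and 1.28% of all genes). The 12 were Perp (1.30), Ercc5 (0.59), Cdkn1a (0.56), Trp53inp1 (0.55), Zmat3 (0.52), Psrc1 (0.50), Plk2 (0.48), Ckap2 (0.45), Mdm2 (0.40), Ccng1 (0.38), Mdm4 (0.36) and Aen (0.35). At 48 h only Zmat3 passed (log2 fold change 0.48 ± 0.096 SE, adjusted p = 0.022), where 0.195% of all genes were called higher and 0.476% lower. In DESeq2 4 passed, all higher, with 0.327% of all genes. At an unadjusted p under 0.05 it was 18, all higher, with 7.74% of all genes in either direction and 3.99% higher. At this time 35 of the 38 fold changes were above 0, against 49.9% of all genes. Their median was 0.13 at 0 h, 0.32 at 24 h and 0.26 at 48 h. For the 19 genes called over all times, every value was above 0 at each time. They were called on the mean of these 3 values, so the shared sign follows in part from that choice. The value was largest at 24 h in 16 of them, equal at 24 h and 48 h in Sesn2, largest at 0 h in Phlda3 and largest at 48 h in Pmaip1. This timing rested in part on CIDEA KO replicate 1 of 24 h. Without it, the 24 h values of Cdkn1a (0.40), Psrc1 (0.36) and Ckap2 (0.28) were below their values at 48 h. Among the 12 called at 24 h, the 24 h value became larger in Zmat3 (0.66), Mdm2 (0.44), Ccng1 (0.43) and Mdm4 (0.37) and smaller in the others.

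The counts at single times rested on single libraries. At 24 h the count was 2 without WT replicate 1 (0.334% of all genes called in either direction), 3 without WT replicate 2 (0.619%), 7 without CIDEA KO replicate 1 (1.27%), 18 (17 higher and 1 lower) without CIDEA KO replicate 2 (12.4%) and 2 with transcript lengths in the fit (0.367%), against 12 and 1.46% with all libraries. The shares over all genes moved as well. The calls that ended without CIDEA KO replicate 1, the library that stood apart, were those of Aen (log2 0.31), Cdkn1a (0.40), Ckap2 (0.28), Ercc5 (0.49), Plk2 (0.44) and Psrc1 (0.36). At 0 h and at 48 h no call remained when any of the 4 libraries of that time was left out. Calls at 48 h were gained without any of the 4 libraries of 0 h or without either CIDEA KO library of 24 h. Without either of those CIDEA KO libraries, calls over all genes at 48 h rose as well.

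**Figure D3:**
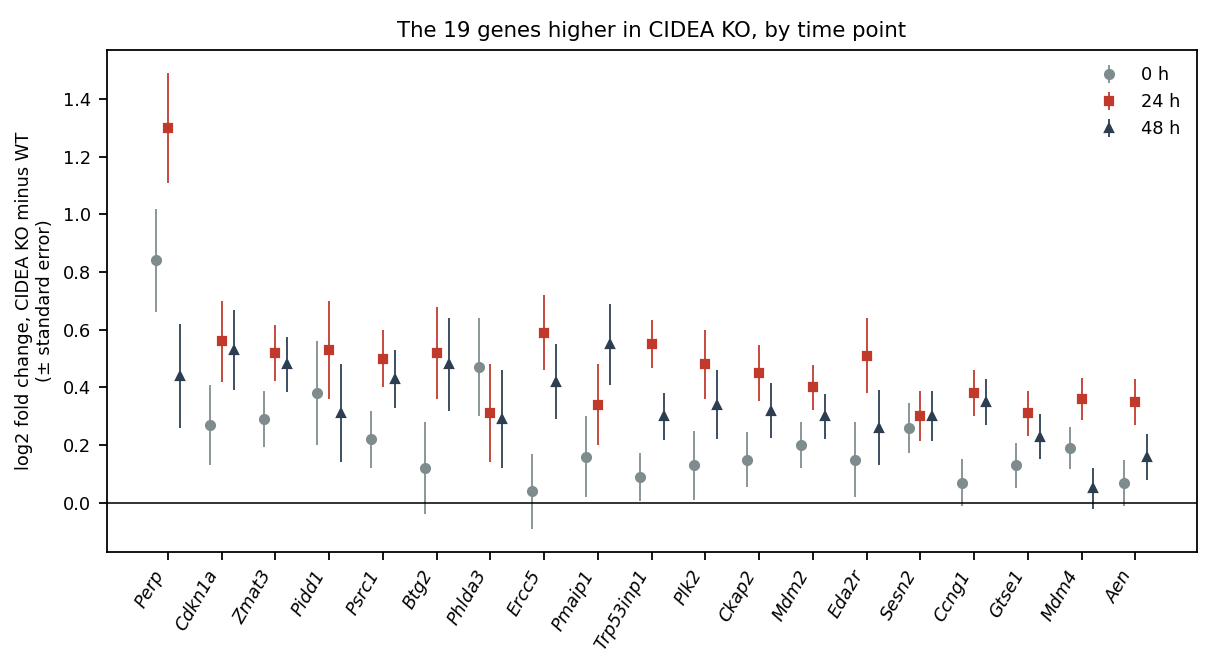
Log2 fold change of CIDEA KO over WT at 0 h (grey circles), 24 h (red squares) and 48 h (dark triangles), with bars of 1 standard error, for the 19 genes called over all times (2 libraries per group). All points are above 0, which follows in part from the choice of genes by the mean of these values. The 24 h point is the highest in 16 genes, with Perp at 1.30, and this order rested in part on CIDEA KO replicate 1 of 24 h.

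The difference between the differences was tested as an interaction of genotype and time. From 0 h to 24 h, 0 of the 38 genes passed (edgeR quasi-likelihood test; 0 in DESeq2 also), and 0.0115% of all genes passed. At an unadjusted p under 0.05 it was 9 of the 38 and 5.91% of all genes. From 0 h to 48 h, 0 passed (0 in DESeq2) and 0.0402% of all genes did, and at an unadjusted p under 0.05 it was 5 of the 38 and 5.76% of all genes. Without CIDEA KO replicate 2 at 24 h, 5 of the 38 passed for the first interaction (3 higher and 2 lower), where 5.71% of all genes passed (0.795% higher and 4.91% lower). A change in the genotype difference from 0 h to 24 h was not shown for any of the 38 genes, although the interaction value of Trp53inp1 was 0.46 ± 0.12 (adjusted p = 0.67) and that of Sfn was -1.32 ± 0.41 (adjusted p = 0.84). By library, both CIDEA KO libraries were above both WT libraries in 18 of the 38 genes at 0 h (47.4%, against 22.6% of all genes tested), in 23 at 24 h (60.5% against 17.6%) and in 25 at 48 h (65.8% against 20.7%). They were below both in 4, 3 and 2 genes at these times (10.5%, 7.89% and 5.26%), against 20.6%, 21.4% and 20.7% of all genes. Both CIDEA KO libraries were above both WT libraries at all 3 times in 13 of the 38 genes (34.2%) and below them in 0, against 2.9% above and 3.35% below among all genes tested. With replicate 2 as the only CIDEA KO library of 24 h, an alternative chosen after the data were seen, it was above both WT libraries at 24 h in 28 genes (73.7% against 36.1% of all genes), and the separation at all 3 times again held in 13 (34.2% against 4.44%). The 13 with all libraries were Mdm2, Cdkn1a, Plk2, Gtse1, Psrc1, Ckap2, Pmaip1, Perp, Aen, Pidd1, Zmat3, Phlda3 and Sesn2.

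With time, the 38 genes moved in both directions in both genotypes. From 0 h to 24 h, 5 rose and 5 fell in WT, where 7.54% of all genes rose and 7.47% fell. In CIDEA KO 14 rose and 7 fell, where 9.24% and 9.33% of all genes did. Trp53, Aen, Pidd1 and Rps27l rose in both, and Mdm4, Cdkn1a, Pmaip1, Gdf15 and Epha2 fell in both. From 24 h to 48 h, 6 rose and 3 fell in WT (3.28% and 4.86% of all genes) and 6 rose and 3 fell in CIDEA KO (4.57% and 5.37%). In both, these included Mdm2, Ccng1, Plk2 and Pmaip1, which rose, and Trp53, Ei24 and Sesn2, which fell. Over the whole course from 0 h to 48 h, 15 rose and 7 fell in WT (11.1% and 12.5% of all genes) and 18 rose and 6 fell in CIDEA KO (12.1% and 12.8%). The genes called in both were 14 that rose and 5 that fell. Counts moved with single libraries, as did the shares over all genes. For WT from 0 h to 24 h it was 6 without WT replicate 1 of 24 h (7.14% of all genes). For WT from 24 h to 48 h it was 15 without either CIDEA KO library of 24 h (11.9% and 11.6%), which enter through the shared estimate of spread. For WT from 0 h to 48 h it was 13 without WT replicate 1 of 48 h (14%), and for CIDEA KO from 24 h to 48 h it was 3 without CIDEA KO replicate 1 of 48 h (4.03%). Without CIDEA KO replicate 1 of 24 h, 15 rose and 6 fell in CIDEA KO by 24 h (7.02% and 6.77% of all genes), and 5 rose and 2 fell from 24 h to 48 h (3.17% and 4.98%). A call in one genotype and not in the other does not show that the genotypes differed, and no interaction passed.

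Gdf15 had the largest fall. On the log2 scale it changed from 0 h to 24 h by -2.72 ± 0.47 SE in WT (adjusted p = 0.00039) and -1.82 ± 0.45 in CIDEA KO (adjusted p = 0.0067), from 7.58 to 10.3 CPM down to 1.01 to 3.84 CPM. In CIDEA KO that call ended without replicate 1 of 0 h (adjusted p = 0.063). Pmaip1 fell and then rose again. It changed by -1.53 ± 0.14 in WT and -1.35 ± 0.14 in CIDEA KO by 24 h (adjusted p = 2.4e-07 and 8.3e-07), and then by 0.94 ± 0.14 and 1.16 ± 0.14 by 48 h (adjusted p = 0.00022 and 1.4e-05). Cdkn1a, the arrest gene, also fell by 24 h, with changes of -0.76 ± 0.14 and -0.48 ± 0.14 (adjusted p = 0.00056 and 0.017). In CIDEA KO the call ended without replicate 2 of 0 h or of 24 h. Its return by 48 h did not pass in either genotype (0.44 and 0.42, adjusted p = 0.055 and 0.058). Trp53 itself went the other way. It rose by 24 h (0.41 ± 0.091 and 0.37 ± 0.091, adjusted p = 0.005 and 0.0079) and fell by 48 h (-0.53 ± 0.091 and -0.36 ± 0.091, adjusted p = 0.0011 and 0.017), and its 48 h level was within 0.12 log2 of that at 0 h. The rise lost its call in WT without replicate 2 of 0 h or replicate 1 of 24 h and in CIDEA KO without replicate 2 of 0 h, and the fall in CIDEA KO without replicate 1 of 48 h (-0.22, adjusted p = 0.24, where leaving out single libraries gave -0.22 to -0.53) or with transcript lengths in the fit (-0.35, adjusted p = 0.074).

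Ccng1, Plk2 and Mdm2 were called higher at 48 h than at 24 h in both genotypes. From 24 h to 48 h Ccng1 rose by 0.56 ± 0.08 in WT and 0.53 ± 0.08 in CIDEA KO (adjusted p = 0.00012 and 0.00017), and over the whole course by 0.77 ± 0.081 and 1.05 ± 0.081 (adjusted p = 5.1e-07 and 5.9e-09). Plk2 rose by 0.68 ± 0.12 and 0.53 ± 0.12 from 24 h to 48 h (adjusted p = 0.00073 and 0.0043). For Mdm2 the step from 24 h to 48 h gave 0.44 ± 0.079 and 0.34 ± 0.078 (adjusted p = 0.0012 and 0.0076). With transcript lengths in the fit the WT step was 0.26 (adjusted p = 0.43), and the call in CIDEA KO ended without replicate 1 of 24 h or of 48 h. Mdm4, its partner, fell from 0 h to 48 h, with changes of -0.29 ± 0.072 and -0.43 ± 0.072 (adjusted p = 0.0059 and 0.00013). Both calls were lost with transcript lengths in the fit (-0.03, adjusted p = 0.92, and -0.26, adjusted p = 0.14), as were those of its fall by 24 h (-0.28, adjusted p = 0.17, and -0.13, adjusted p = 0.52), and the 48 h call in WT also ended without replicate 2 of 0 h or replicate 1 of 48 h. Pidd1 rose by 24 h in both genotypes (0.73 ± 0.18 and 0.88 ± 0.18, adjusted p = 0.0084 and 0.0015), and the WT call was lost with transcript lengths in the fit (1.14, adjusted p = 0.06) and without replicate 2 of 0 h or replicate 1 of 24 h. Trp73, at 4.42 and 6.21 CPM in WT against 4.07 and 2.45 in CIDEA KO at 0 h, 9.63 and 8.33 against 7.53 and 11.6 at 24 h, and 11.8 and 12.8 against 11.6 and 18.2 at 48 h, rose from 0 h to 48 h in both (1.21 ± 0.31 and 2.19 ± 0.33, adjusted p = 0.0074 and 3.5e-05), a call that ended in WT without replicate 1 of 0 h (adjusted p = 0.091). Polk, at 8.67 and 11.1 CPM in WT against 13 and 10.9 in CIDEA KO at 0 h, 14.9 and 14.2 against 11.1 and 17.3 at 24 h, and 21.7 and 21.2 against 25.8 and 22.9 at 48 h, rose likewise (1.12 ± 0.22 and 1.03 ± 0.22, adjusted p = 0.00073 and 0.0013). The groups of 0 h and 48 h did not overlap for Trp73 or Polk in either genotype. Bax changed by no more than 0.20 log2 in any step and passed in none.

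**Figure D4:**
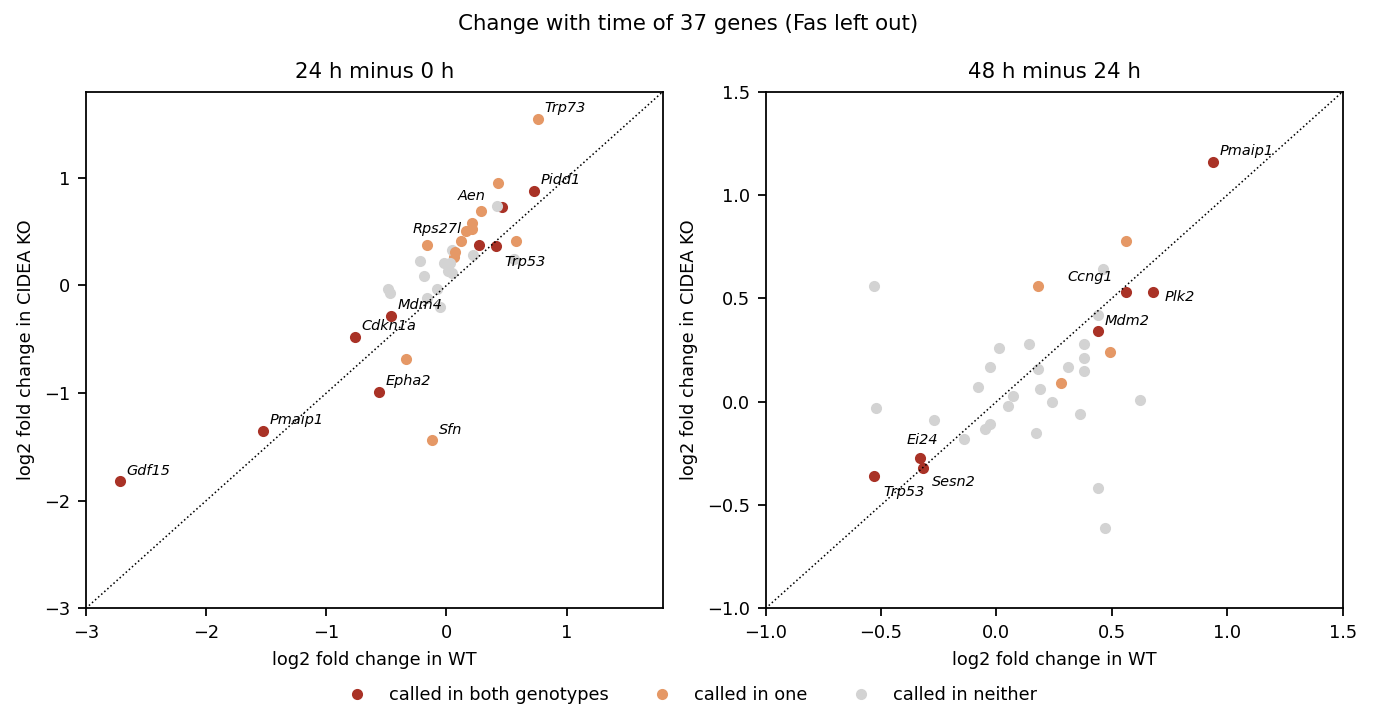
Log2 fold change in CIDEA KO against that in WT for 37 of the genes, from 0 h to 24 h (left) and from 24 h to 48 h (right). Fas, near the floor in some libraries, is left out. Dark red points passed the test in both genotypes, orange points in one and grey points in neither, and the dotted line marks equal change. Gdf15 (-2.72 in WT and -1.82 in CIDEA KO) and Pmaip1 (-1.53 and -1.35) lie farthest down on the left, and Pmaip1 (0.94 and 1.16) lies farthest up on the right.

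The 38 genes spanned a wide range of levels. In TPM, which is scaled for transcript length and can be compared between genes, the means over the 12 libraries were highest in Rps27l (543), Trp53 (517) and Bax (383), followed by Ccng1 (162), Ei24 (154) and Psrc1 (153). The ranges of Rps27l (404 to 654) and Trp53 (406 to 683) overlapped, so their order is not settled. Mdm2 (87) and Mdm4 (74.6) were close, and Cdkn1a (32.7), Pmaip1 (22.9) and Perp (14.3) lay lower. Gdf15 (4.72), Trp73 (4.62) and Fas (0.557) were the lowest. Genes called higher in CIDEA KO over all times lay between Ccng1 at 162 TPM and Perp at 14.3 TPM. No gene with a mean above that of Ccng1 or below that of Perp was called.

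Transcript assignment touched the values of some of these genes. Mdm2-201, the main coding transcript, took 77.1% to 93.5% of the Mdm2 counts in WT and 74.5% to 89.8% in CIDEA KO, and Mdm2-204, a shorter transcript with a retained intron, took between 1.36% and 10.3%. In TPM, where a count weighs more the shorter its transcript, Mdm2 overlapped at 24 h, with 95.5 and 71.2 TPM in WT and 76.1 and 89.6 TPM in CIDEA KO, while its CPM did not. With lengths in the fit its 24 h fold change was -0.04 (adjusted p = 0.94). Perp, Btg2, Ccng1, Sesn2 and Pmaip1 were quantified through 1 transcript that held 100% of the counts in every library, and Ckap2-201, Plk2-201 and Phlda3-201 held at least 95.7%. Zmat3-201 held between 32.8% and 97.8% in WT and between 36.5% and 100% in CIDEA KO, the rest going mainly to Zmat3-203, so the split between these transcripts is not resolved although the sum over the gene is steady. Pidd1-201, a coding transcript, held between 30.3% and 57.8% of the Pidd1 counts in WT and between 21.1% and 57.6% in CIDEA KO. The rest went mainly to transcripts with retained introns or marked for nonsense-mediated decay, so the sum does not stand for the coding transcript alone. The 9 genes that were also called with lengths in the fit were Cdkn1a, Ccng1, Gtse1, Psrc1, Ckap2, Perp, Zmat3, Trp53inp1 and Sesn2.

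Other genes of the pathway, outside the 38, were called in both directions. Of 32 further p53 targets 31 were tested, and 3 were higher (Susd6, Ikbip and Ccnd1) and 3 lower (Sesn1, Steap3 and Ddit4) in CIDEA KO over all times (9.68% each way, against 2.19% and 2.84% of all genes), with a median log2 fold change of -0.02. Sesn1, the paralog of Sesn2, was lower (-0.56 ± 0.09, adjusted p = 7e-04) while Sesn2 was higher. Among 18 upstream regulators such as Atm, Atr, Chek1, Chek2 and Usp7, 17 were tested and 1 passed (5.88% lower, against 2.84% of all genes). That one was Sirt1, a deacetylase with p53 among its substrates, which was lower, at -0.71 ± 0.051 over all times (adjusted p = 5.2e-08) and at -0.72, -0.63 and -0.76 at 0 h, 24 h and 48 h, and its part in the values of the 38 genes was not tested. Of 16 mitotic and G2 genes that p53 is known to repress through p21 and the DREAM complex, 1 passed (6.25% higher, against 2.19% of all genes). It was Cdk1 (0.17 ± 0.043, adjusted p = 0.024), and the median over the 16 was 0.05. No gene of this list was called lower beside the higher Cdkn1a, where 2.84% of all genes were called lower. A total of 15 of the 16 values were above 0, against 49.5% of all genes.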

How the data were processed

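Polyadenylated RNA of mouse ESCs and spheroids was sequenced in 12 libraries (strand-specific kit), and the labels placed them in 6 groups of 2. The authors checked reads with FastQC, trimmed them with Trimmomatic 0.33 and quantified transcripts with kallisto 0.43.1 on GRCm38, and deposited 1 table per library. Each holds estimated counts (the expected number of read pairs per transcript, not scaled), an effective length, and TPM, which the authors' tool scaled by length to a fixed total. The transcript set and strand setting are not given in the sources used here. No other columns of sample values were left aside.

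Estimated counts were summed per gene with GENCODE M21 names (98.5% of 115270 transcripts matched) and rounded. edgeR 4.0.16 in R 4.3.3 was run with TMM scaling, filterByExpr and a robust quasi-likelihood fit of 6 group means over all 12 libraries, so that all groups shared 1 estimate of the spread (biological coefficient of variation 0.311). Contrasts were tested by the quasi-likelihood F test with Benjamini-Hochberg adjustment over all 17424 genes and a threshold of 0.05. The scripts were tested on simulated data. Over all times, edgeR recovered 66.2% of genes changed by 0.5 on the log2 scale, 90% of those changed by 1 and 96.7% of those changed by 2. It made 21 false calls among 17424 genes. At 0 h alone it recovered 35%, 66.7% and 90% in the same order, with 8 false calls. CPM values are TMM-scaled. Interactions were the change in CIDEA KO minus that in WT. The study describes the libraries of a group as 2 biological replicates, all CIDEA KO ones being of 1 clone, and how the cultures were kept apart is not given in the sources used here.

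The 38 genes, their roles and the other lists were chosen with earlier results of these data known. Values in every library were given by rule for genes called for genotype, for Trp53, Mdm2, Mdm4, Cdkn1a, Ccng1 and Bax, and for the 4 called genes with the largest mean change at each step in time. Alternatives were DESeq2 size factors, no filter on low counts, DESeq2 1.42.0, average transcript lengths as offsets, a replicate block, each of the 12 libraries left out in turn and, chosen after the data were seen, 0 h and 48 h only and a count of separated genes without CIDEA KO replicate 1 of 24 h. Promoter windows came from RefSeq (GRCm38.p6). Those of Pmaip1, Tnfrsf10b, Perp, Xpc, Ddb2, Rrm2b, Zmat3 and Trp53inp1 were not analysed here. Replicate numbers were not used to pair libraries.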

Additional observations from a re-analysis of the deposited data

Results flagged for a closer look

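For 3 genes both libraries moved one way between 2 times in WT and the opposite way in CIDEA KO, without overlap. The share of all genes that moved so was not counted, so the 3 are no result about the list. From 0 h to 24 h the mean CPM of Trp53inp1 changed by -0.22 on the log2 scale in WT and by 0.23 in CIDEA KO, a difference of 0.46, and the interaction fitted over all genes gave 0.46 ± 0.12 SE (edgeR adjusted p = 0.67). From 24 h to 48 h Mdm4 changed by 0.17 in WT and -0.15 in CIDEA KO, a difference of -0.32. Over the same step Perp changed by 0.44 in WT and -0.42 in CIDEA KO, a difference of -0.86. For Mdm4 and Perp the difference was not tested.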

How the results depend on the processing

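Of 2212 values of genes called for a contrast under an alternative, 1964 kept direction and call, 247 kept direction only, and 1 turned, the difference of Mdm2 at 24 h, which was -0.04 with average transcript lengths in the fit. Of 342 values of genes not called, 8 gained a call and 10 changed sign at 2 decimals (6 genes: Trp73, Sfn, Bbc3, Xpc, Rps27l and Dcxr), of which Sfn moved most, from -0.13 to 0.27 with 0 h and 48 h only. With those lengths the counts of genes called were 9 for CIDEA KO against WT over all times, 0 at 0 h, 2 at 24 h and 0 at 48 h, 6 for WT from 0 h to 24 h, 5 for WT from 24 h to 48 h and 4 for CIDEA KO from 24 h to 48 h. Calls over all 17424 genes fell as well. They went from 877 to 294 over all times and from 220 to 60 at 0 h. At 24 h they went from 255 to 64 and at 48 h from 117 to 19. For the 3 steps in time they went from 2615 to 1318, 1418 to 565 and 1733 to 823, in the order above. The count of listed genes at 48 h was 6 with no filter on low counts, 4 in DESeq2 and 3 with a replicate block. Over all genes it was 303 with no filter and 233 in DESeq2, of 24773 genes each, and 117 of 17424 with the block. With 0 h and 48 h only, the count over all times was 7 (Mdm2, Cdkn1a, Psrc1, Perp, Zmat3 and Sesn2 of the 19, and Epha2), where 0.717% of all genes were called higher. The cause was not tested.

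With 1 library left out, the counts ran from 14 to 22 over all times, from 0 to 2 at 0 h, from 2 to 18 at 24 h and from 0 to 7 at 48 h. Over time they ran from 6 to 12, 6 to 15 and 13 to 24 in WT (0 h to 24 h, 24 h to 48 h, 0 h to 48 h) and from 14 to 21, 3 to 12 and 18 to 26 in CIDEA KO. For the interactions they ran from 0 to 5 at 24 h and stayed at 0 at 48 h. Calls over all genes moved as well in these fits. A lone library left in a group was assumed to vary like the other groups. Libraries with the same replicate number did not deviate together (correlations from -0.049 to 0.051), so the numbers were not taken as a pairing. With the replicate block, the count for WT from 24 h to 48 h was 10 and the other counts, 48 h apart, were as without it, but at 24 h Cdkn1a lost its call (adjusted p = 0.056), so an equal count did not mean the same genes.

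With 2 libraries per group, adjusted p-values at single times depended on each library. Genes near the floor of 3 counts, such as Fas, could not be compared at this depth.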
